A study of Homo sapiens with 8 samples.

Results

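The extended major histocompatibility complex on the short arm of chromosome 6 was examined for CHD4 binding in SCC9 cells, a human squamous cell carcinoma line. Overlapping peaks of the 6 CHD4 lists (by 1 bp or more) were joined into 18808 regions, and the 258 members are those that start in a window of 7.8 Mb from 25.7 Mb of chromosome 6 (hg19). Of these, 102 lie in the histone gene cluster (26 to 28 Mb), 49 in the stretch of zinc finger and tRNA genes (28 to 29.5 Mb), 104 in the major histocompatibility complex (MHC, the last 4 Mb, from 29.5 Mb on) and 3 in the flank before 26 Mb. The series compared SCC9 cells without DOC1 (titled lacZ, labelled -DOC1) with SCC9 cells with DOC1 (titled DOC1, labelled +DOC1). Chromatin immunoprecipitation and sequencing (ChIP-seq) with an antibody against CHD4 gave 3 libraries per group, and 1 IgG library per group was not analysed here. Both groups were grown in the same serum- and hydrocortisone-supplemented medium and fixed with formaldehyde, and the labels do not say how DOC1 was supplied or removed. They also do not say whether replicate libraries were made from different cultures, so the spread behind each p-value is that of these libraries and may be technical.

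CHD4 is the ATPase of NuRD, a complex that moves nucleosomes and removes acetyl groups from histones, and DOC1, the product of CDK2AP1, belongs to that complex as well. The histone cluster holds many near-identical copies of the genes for the core and linker histones, which are transcribed together in S phase to package newly made DNA. The same stretch of chromosome carries the largest group of human tRNA genes, short genes that RNA polymerase III transcribes from promoters inside the gene. KRAB zinc finger genes follow, which code for DNA-binding repressors, and then the MHC, whose class I and class II genes code for the proteins that present peptides to T cells. In the RefSeq gene order (GRCh38, used for names and order only), 55 histone genes lie from H2AC1 to H2BC17, and 98 tRNA genes lie between them. The interval from there to HLA-F holds 46 more tRNA genes, 11 zinc finger genes and 16 olfactory receptor genes. The interval from HLA-F to HLA-DPB1 holds no annotated tRNA gene and 128 protein-coding genes. In all, 155 of the 465 tRNA genes in that table are on chromosome 6. Members are given below by hg19 position and not by gene, since gene positions of that build were not used here.

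The lists held between 2812 and 11032 peaks, and between 31 and 176 peaks of each lay in the window. Depth, estimated from the folds and p-values for an assumed size of the genome, came to between 10.99 (DOC1 1) and 27.8 (DOC1 3), in units of 1e+06 reads. A peak's fold enrichment is the authors' ratio of scaled reads at the summit to scaled local background, after 1 is added to each. Scaling differs between lists, so strength is given as a percentile of the same list. DOC1 2 stood apart from the rest, with 61.2% of its regions over the genome found in no other library, and results that rest on it are also given without it. Intervals for counts of reads are not given, because reads amplified by PCR without molecular identifiers are not independent molecules. Absence means that no peak passed the caller's threshold.

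CHD4 regions were dense over much of the window and densest from 26 to 28 Mb, the interval of the histone genes and of many tRNA genes. The histone stretch held 51 regions per Mb, the zinc finger and tRNA stretch 32.7 and the MHC 26, while the rest of chromosome 6 held 7.75 per Mb. Of the 2365 bins of 1 Mb in the genome with a peak, the median held 5 regions. The bins at 26 to 27 Mb, 27 to 28 Mb and 28 to 29 Mb held 50, 52 and 49 regions, each at or above the 99.5th percentile of all bins. Inside the MHC the bins at 30 to 31 Mb and 31 to 32 Mb held 33 and 31 regions, and the bin at 29 to 30 Mb held 9. The typical gap from a member to the next was 6.98 kb in the histone stretch, 11.9 kb in the zinc finger and tRNA stretch and 18.9 kb in the MHC (medians). Members did not fill the window evenly. The longest gap, 632.6 kb, ran from 28985154 to 29617716 at the border of the zinc finger stretch and the MHC. The next, 583.1 kb, ran from 32223379 to 32806447 within the MHC, and a gap of 327.3 kb from 26597450 to 26924736 parted the histone stretch into a first and a second part. These gaps hold no peak of any of the 6 libraries.

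**Figure D1:**
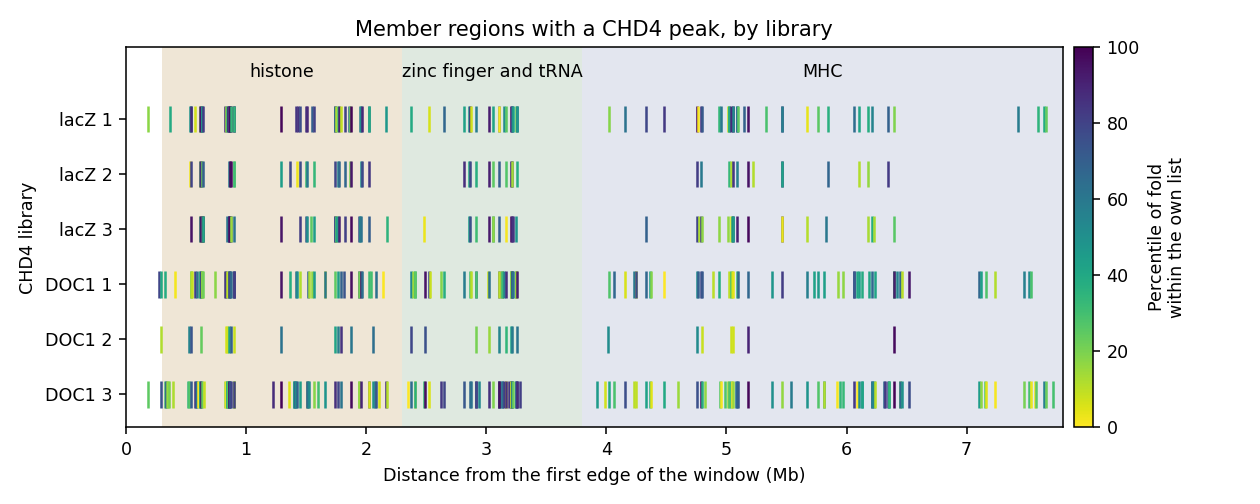
Position of the member regions (x axis, distance from the edge of the window at 25.7 Mb) in each of the 6 CHD4 libraries (y axis), with 1 tick per region that holds a peak and colour for the percentile of its fold enrichment within that library's list. Shading marks the histone, zinc finger and tRNA, and MHC stretches. All 6 rows have ticks in the 3 stretches, fewest in DOC1 2 (31 members), and the MHC is filled mainly in DOC1 1 (53 regions) and DOC1 3 (70 regions).

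Members formed close groups. With gaps of up to 20 kb allowed, the 258 members fell into 94 runs, and the 5 with most members held 16, 15, 9, 8 and 8. The run of 16 spanned 76.04 kb of the histone stretch (chr6:26521413-26597450). Peaks of lacZ 1 and DOC1 3 were each found in 13 of its regions, those of DOC1 1 in 11, of lacZ 3 in 8 and of lacZ 2 and DOC1 2 in 5 each. The run of 15 spanned 79.02 kb (chr6:26273039-26352061) and held 1 region found in all 6 libraries and 6 found in 1 library alone. The run of 9 lay in the MHC (chr6:30712318-30757340), and both runs of 8 lay in the zinc finger and tRNA stretch (chr6:28891829-28921222 and chr6:28831248-28866427). Not every dense run was shared. A run of 7 at the start of the histone stretch (chr6:26020689-26065218), named after its values were seen, consisted of regions found in 1 library alone, 5 of them in DOC1 3, 1 in DOC1 1 and 1 in lacZ 1.

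Sites occupied in every library were a larger part of the members than of all regions. Peaks of all 6 libraries met in 15 members (5.81%), where 2.75% of all regions did so. The share was 7.84% in the histone stretch (8 of 102), 6.12% in the zinc finger and tRNA stretch (3 of 49) and 3.85% in the MHC (4 of 104), against 2.14% on the rest of chromosome 6. A further 13 members were found in every library but DOC1 2 (5.04%, background 3.6%), and without that library 28 members were found in all 5 others (11.0%, background 7.15%). Where a library counted as present only if its peaks covered 50% of the region, 2 members were found in all 6 libraries (0.775%, background 0.622%), a share near the background. Members in 1 library alone made up 45.0% of the window, where 56.2% of all regions were of this kind. Most of this gap came from DOC1 2, whose regions found in it alone were 1.55% of members and 11.1% of all regions. For DOC1 1 these shares were 11.6% and 11.5%, and for DOC1 3 23.3% and 21.3%. For lacZ 1, lacZ 2 and lacZ 3 they were 4.65% and 7.86%, 0.775% and 0.829%, and 3.10% and 3.57%. Members in 1 library alone made up 28.6% of the zinc finger and tRNA stretch, 46.1% of the histone stretch and 51.9% of the MHC. These shares are descriptions, since neighbouring regions share libraries and are not independent.

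**Figure D2:**
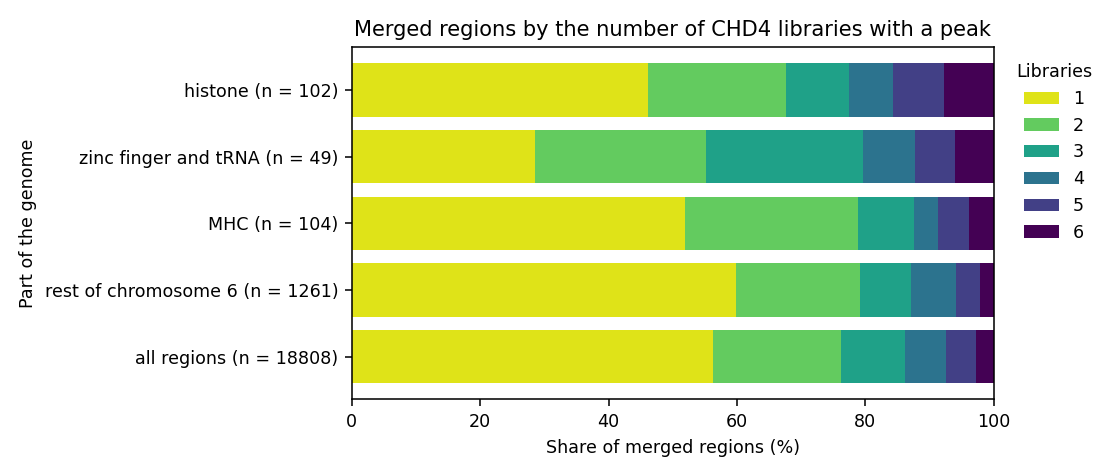
Share of merged regions (x axis, percent) by the number of CHD4 libraries that hold a peak there (colour, 1 to 6), for the 3 stretches of the window, the rest of chromosome 6 and all regions of the genome. Regions in 1 library alone make up 28.6% of the zinc finger and tRNA stretch and 56.2% of all regions.

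The 8 histone-stretch members shared by all libraries included some of the strongest CHD4 peaks of the window. The region chr6:27573147-27573677 had fold enrichments of 14.2, 10.4 and 13.1 in lacZ 1, lacZ 2 and lacZ 3 and of 9.54, 5.53 and 9.33 in the DOC1 libraries. This site ranked at or above the 93.7th percentile in every list except that of DOC1 2, where it stood at the 60.7th. The region chr6:26987556-26988426 had folds of 12.9, 5.97 and 10.8 in the lacZ libraries and of 8.99, 5.54 and 11.0 in the DOC1 libraries. It reached the 99.2nd percentile of DOC1 3 but only the 44.8th of lacZ 2, so its rank varied within a group as well. The region chr6:26556626-26557142, inside the run of 16, stood between the 43.5th percentile (DOC1 2) and the 95.6th (lacZ 3). By contrast, chr6:27463373-27464081 was of middling strength throughout, with folds between 5.00 and 6.38 in the 6 lists. The 3 remaining shared members of the histone stretch, outside the rule for named regions, lie at chr6:26241161-26241940, chr6:26322190-26323341 and chr6:27440311-27441505.

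In a shared member the summits of the strongest lacZ and DOC1 peaks lay at different places. In chr6:26571771-26573182 (1412 bp) the summits of the strongest peaks lay at 26572765, 26572698 and 26572781 in lacZ 1, lacZ 2 and lacZ 3. They lay at 26572127, 26572177 and 26572370 in DOC1 1, DOC1 2 and DOC1 3, so that 328 bp parted the groups. The peaks themselves were not parted by group. This member held 8 peaks, and those of lacZ 1 (1308 bp), lacZ 3 (1208 bp) and DOC1 3 (1167 bp) each spanned the summits of both groups. Its folds were 14.1, 12.3 and 7.53 without DOC1 and 6.36, 5.80 and 6.31 with it. It was the only one of the 15 shared members whose summits lay 100 bp or more apart by group, and among all 518 regions of the genome found in all 6 libraries 1.54% did. Over the 15 shared members the summits of the 6 libraries spanned a median of 193 bp, and in 1 they fell within 100 bp. The span was smallest, 89 bp, in chr6:30456681-30457291 of the MHC.

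The zinc finger and tRNA stretch held 3 members found in all libraries. In chr6:28911188-28911899 the folds were 6.24, 7.85 and 8.79 in lacZ 1, lacZ 2 and lacZ 3 and 8.77, 5.48 and 7.21 in DOC1 1, DOC1 2 and DOC1 3, so the groups overlapped. Its summits held between 23 reads (DOC1 2) and 64 reads (lacZ 1). The region chr6:28725095-28726513, at 1419 bp among the 5 longest members, stood at the 92.0th, 91.2nd and 93.2nd percentile of the lacZ lists and at the 63.1st, 15.3rd and 85.6th of DOC1 1, DOC1 2 and DOC1 3. The last of them lies at chr6:28615764-28616475, outside the rule for named regions, and its folds lay between 4.43 and 6.21.

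In the MHC the shared members all lay within 1 bin of 1 Mb, that at 30 to 31 Mb. The strongest of the window by its lowest rank was chr6:30875236-30876160. Its folds were 10.4, 11.2 and 13.5 in the lacZ libraries and 6.51, 6.84 and 9.82 in the DOC1 libraries. The summits held 132, 90 and 87 reads in the lacZ libraries and 33, 32 and 103 reads in the DOC1 libraries, the most of any member in all 6 libraries in each of these lists. The region chr6:30456681-30457291 had folds of 11.6, 8.12 and 7.96 without DOC1 and 5.90, 5.24 and 6.06 with it. Rank was less even in chr6:30752684-30753317, named after its values were seen. There the peaks stood at the 93.4th, 83.6th and 80.6th percentile in lacZ 1, lacZ 2 and lacZ 3 and at the 3.6th, 7.12th and 15.6th in DOC1 1, DOC1 2 and DOC1 3. Since folds and percentiles belong to lists of unequal length, these differences in rank were not tested as changes.

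**Figure D3:**
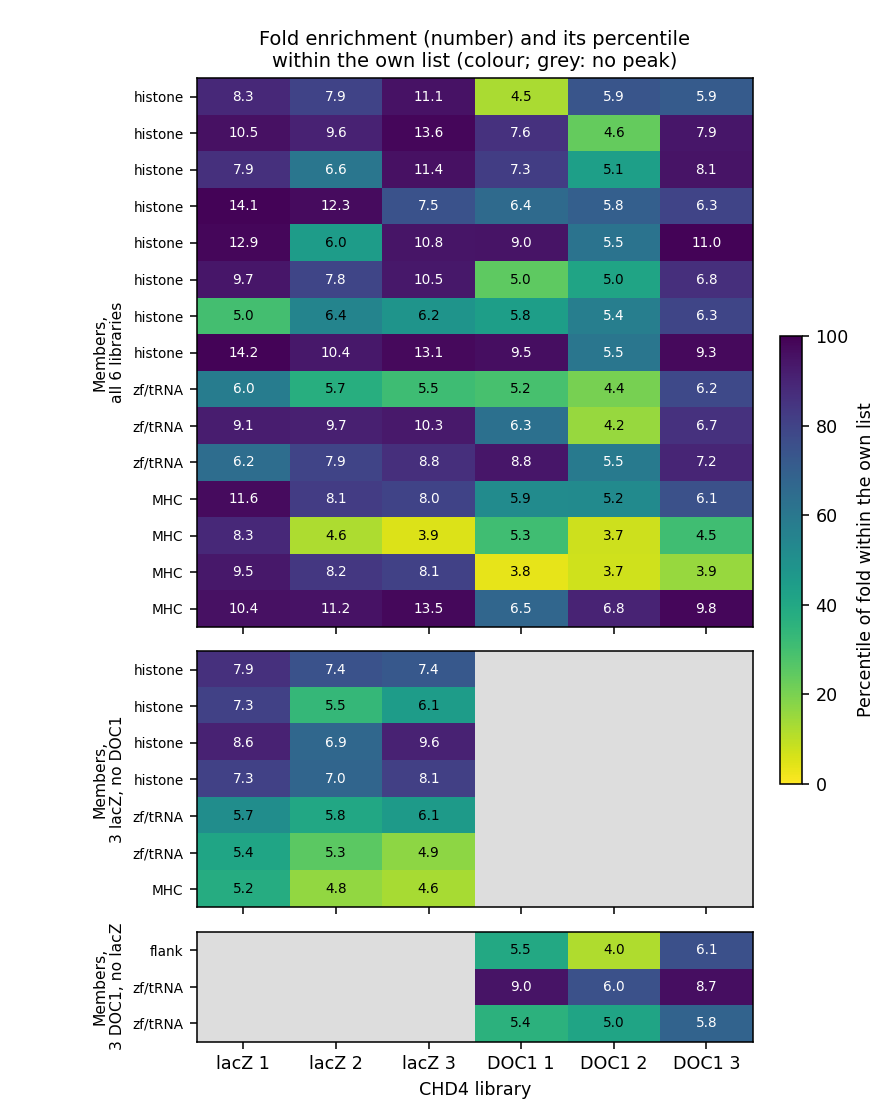
Fold enrichment (number in each cell) and its percentile within the library's own list (colour, grey where no peak was called) for the 15 members found in all 6 libraries, the 7 found in all lacZ and no DOC1 library and the 3 found in all DOC1 and no lacZ library. Rows follow genome order within each class and are labelled by stretch, columns are libraries, and the rows of the last class hold folds between 4.01 and 9.0.

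Among the members, 7 had a peak in each lacZ library and in no DOC1 library (2.71%), where 1.18% of all regions had this pattern. The histone stretch held 4 of them, the zinc finger and tRNA stretch 2 and the MHC 1. The best-ranked was chr6:26314012-26314464, with folds of 7.89, 7.44 and 7.36 and with 56, 34 and 27 reads at the summit in lacZ 1, lacZ 2 and lacZ 3. All 3 summits fell within 36 bp. It was not an isolated site, since a member that held peaks of DOC1 1 and DOC1 3 (chr6:26312666-26313713) ended 298 bp before it. Next came chr6:27520812-27521530 with folds of 7.32, 6.98 and 8.11, and chr6:27470320-27471011 with folds of 8.60, 6.94 and 9.55. The nearest members with a DOC1 peak lay 4.997 and 6.238 kb away from these. The fourth in the histone stretch, chr6:27261555-27261937, stood at the 80.6th percentile of lacZ 1 but the 33.3rd of lacZ 2.

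In the zinc finger and tRNA stretch the sites of this kind were chr6:28557004-28557407, with folds of 5.68, 5.79 and 6.11, and chr6:28758060-28758653, with folds of 5.36, 5.26 and 4.90. A member with 1 DOC1 peak lay 333 bp from the latter. The only one in the MHC, chr6:31878063-31878707, was weak, with folds of 5.25, 4.83 and 4.65 and between 16 and 31 reads at its summits. With regions within 500 bp of each other merged the count was 5 (2.22%, background 1.2%). In lists of equal length (the 2812 peaks of lowest p-value of each library) it was 9 (6.72%, background 3.81%), and without lacZ 2 it was 15 (5.86%, background 3.6%). No single region can pass a test, since 3 of 3 libraries against 0 of 3 gives at best an exact p of 0.1.

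The reverse pattern, a peak in each DOC1 library and in no lacZ library, was found in 3 members (1.16%, background 0.978%), a share near that of all regions. The strongest was chr6:28192835-28193338 in the zinc finger and tRNA stretch. Its folds in the DOC1 libraries, in order 9.0, 5.99 and 8.69, put it at the 94.8th, 75.2nd and 96.4th percentile, and its summits of 27, 22 and 60 reads fell within 53 bp. The second, chr6:28908688-28909249, had folds of 5.43, 5.03 and 5.75. It lay in a run of mixed patterns. The nearest member, 27 bp after it (chr6:28909277-28909582), held peaks of DOC1 1 and DOC1 3 and no lacZ peak. A member with all lacZ libraries and 2 DOC1 libraries (chr6:28907190-28907793) ended 894 bp before chr6:28908688-28909249. Farther along came the shared site at 28911188 and a site with 2 lacZ and 2 DOC1 libraries (chr6:28912007-28912590). Then came a site with peaks of lacZ 1 and lacZ 3 only (chr6:28918704-28919014, folds of 5.41 and 8.58). The last, chr6:25992547-25993183, lay in the flank before the histone stretch, and its 3 summits fell within 4 bp of each other with 24, 22 and 63 reads. Its folds of 5.53, 4.01 and 6.07 stood at the 39.5th, 11.8th and 75.5th percentile of DOC1 1, DOC1 2 and DOC1 3, so it was weak in DOC1 2. The nearest member with a lacZ peak was 71.7 kb away.

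DOC1 2 took part in few members without a lacZ peak. Of those with peaks in exactly 2 DOC1 libraries, 32 of 34 were those of DOC1 1 and DOC1 3. Over all regions this pair made up 1816 of 1975 such cases, so its excess was not particular to the members. Without DOC1 2, 35 members were found in all remaining DOC1 libraries and no lacZ library. They made up 13.8% of the members, where 11.96% of all regions were of this kind. With 2 or 3 DOC1 libraries and no lacZ library, the members numbered 37 (14.3%, background 11.5%). They made up 22.4% of the zinc finger and tRNA stretch, 17.3% of the MHC and 6.86% of the histone stretch. With 2 or 3 lacZ libraries and no DOC1 library, they numbered 19 (7.36%, background 4.49%), and here the histone stretch had 10.8%, the zinc finger and tRNA stretch 6.12% and the MHC 4.81%. The order of the stretches was thus not the same in both directions. Counted by the difference in libraries instead, 41 members had peaks in at least 2 more DOC1 than lacZ libraries (15.9%, background 12.2%), and 21 in at least 2 more lacZ than DOC1 libraries (8.14%, background 6.7%). Leaving out a library changes what such a rule asks for, so each count below has its own background. The former count was 5 without DOC1 1 (2.19%, background 1.73%), 4 without DOC1 3 (1.99%, background 1.56%) and 9 in lists of equal length (6.72%, background 6.73%). The latter was 8 without lacZ 1 (3.21%, background 1.51%) and 10 without lacZ 3 (4%, background 1.94%). It was 37 without DOC1 1 (16.2%, background 12.4%) and 38 without DOC1 3 (18.9%, background 16.5%).

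Sites in the MHC with peaks in several DOC1 libraries and no lacZ library were those of DOC1 1 and DOC1 3 in all 18 cases. Over all regions this pair alone made up 1816 of 2159 such sites. The best-ranked was chr6:32222958-32223379, with folds of 8.66 and 6.14 in DOC1 1 and DOC1 3 and summits 10 bp apart. In chr6:32145834-32146258 the folds were 6.49 and 5.64 and the summits lay 1 bp apart. The next, chr6:31913277-31913877, had folds of 6.43 and 5.26. In the zinc finger and tRNA stretch the same pair of libraries carried chr6:28611073-28611499 (folds of 7.06 and 7.86) and chr6:28831248-28831717 (6.43 and 5.37). In the histone stretch they carried chr6:27218830-27219171 (6.54 and 5.39) and chr6:26286652-26287002 (6.31 and 5.29), while chr6:27759818-27760310 had folds of 5.64 and 5.11 in DOC1 2 and DOC1 3. In the other direction, peaks of lacZ 1 and lacZ 3 met in chr6:27198093-27198513 (folds of 7.66 and 7.29) of the histone stretch and chr6:30756935-30757340 (5.74 and 5.99) of the MHC. Peaks of lacZ 2 and lacZ 3 met in chr6:31160226-31160482 (8.89 and 8.33), and those of lacZ 1 and lacZ 2 in chr6:31548607-31548917 (5.24 and 7.00), both in the MHC.

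The share of a list that fell in the histone stretch was lower in all DOC1 libraries than in all lacZ libraries, by a narrow margin. It held 0.683%, 1.07% and 0.826% of the peaks of lacZ 1, lacZ 2 and lacZ 3 and 0.677%, 0.406% and 0.598% of those of DOC1 1, DOC1 2 and DOC1 3. The means were 0.859 ± 0.194% without DOC1 and 0.560 ± 0.139% with it (SD, n = 3, two-sided exact permutation p = 0.1, the smallest this design allows). After Benjamini-Hochberg adjustment over 9 such measures the p was 0.3, so the difference did not pass the test. DOC1 1 and lacZ 1 lay next to each other, and the groups were farther apart when the lists were cut to equal length. There the lacZ libraries had shares of 1.35%, 1.07% and 1.21%, and the DOC1 libraries 0.747%, 0.427% and 0.782%. The difference of -0.298 percentage points was -0.557 there. With all peaks it was -0.194 without lacZ 2 and -0.221 without DOC1 2. In numbers, the histone stretch held 48, 30 and 39 peaks of the lacZ libraries and 53, 14 and 66 of the DOC1 libraries, which overlap. The local background at peaks of the window, relative to the median of the same list, was 1.2, 1.02 and 1.14 in the lacZ libraries and 1.33, 1.79 and 1.26 in the DOC1 libraries. It was higher in each DOC1 library than in each lacZ library. The libraries of a group may share a control, so these values may not be independent. The part of local background in the result was not tested.

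**Figure D4:**
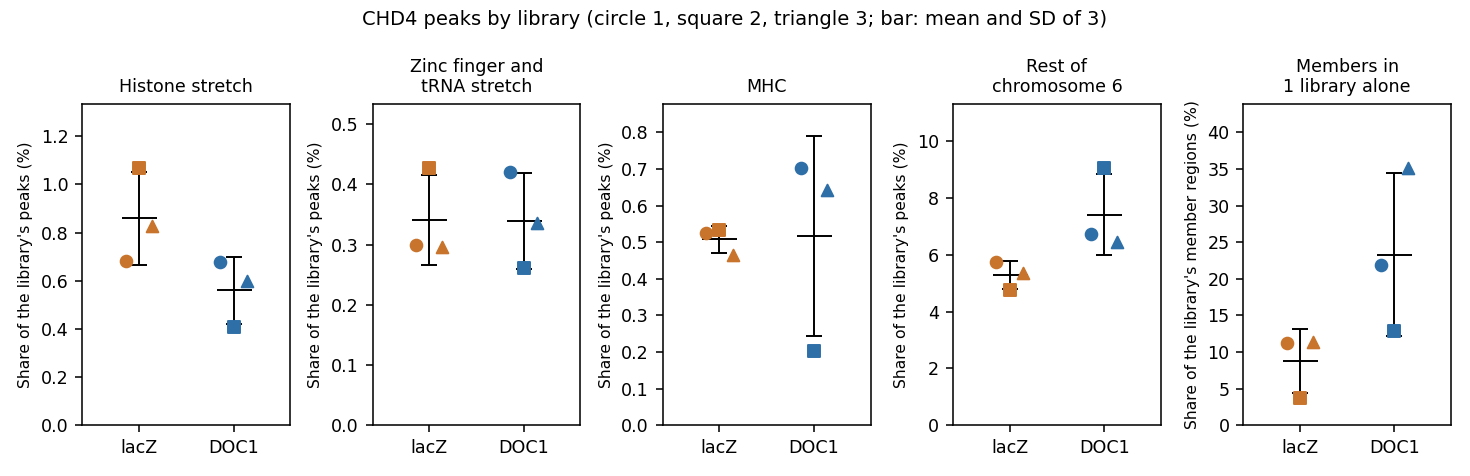
Share of each library's peaks (y axis, percent) in the 3 stretches and on the rest of chromosome 6, and share of each library's member regions that no other library held (last panel), with lacZ libraries in orange and DOC1 libraries in blue. Bars give the mean and SD of 3 libraries. The DOC1 libraries lie below the lacZ libraries for the histone stretch (0.560 ± 0.139% against 0.859 ± 0.194%) and above them on the rest of chromosome 6 and in the last panel.

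Within their own lists, histone-stretch peaks stood at a median percentile of fold of 72.7, 63.6 and 70.3 in the lacZ libraries and of 44.0, 56.7 and 49.8 in the DOC1 libraries. The lacZ values were above the middle of their lists and the DOC1 values near it, as a description of lists of unequal length. In the MHC the medians were 54.8, 56.8 and 40.2 in the lacZ libraries and 44.0, 51.6 and 33.8 in the DOC1 libraries. In the zinc finger and tRNA stretch they lay between 35.8 (DOC1 1) and 67.3 (DOC1 3), with the lacZ libraries in between.

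The shares of the other stretches showed no such order. In the zinc finger and tRNA stretch the mean share was 0.341 ± 0.075% for lacZ and 0.339 ± 0.080% for DOC1 (SD, n = 3, exact permutation p = 1), and single libraries ranged from 0.261% (DOC1 2) to 0.427% (lacZ 2). The MHC held 0.509 ± 0.037% without DOC1 and 0.516 ± 0.273% with it (SD, n = 3, exact permutation p = 1). Here DOC1 1 (0.702%) and DOC1 3 (0.644%) lay above all lacZ libraries and DOC1 2 (0.203%) below them. Without DOC1 2 the MHC share was higher with DOC1 by 0.164 percentage points. Over the whole window the mean share was 1.71 ± 0.274% for lacZ and 1.44 ± 0.482% for DOC1 (SD, n = 3, exact permutation p = 0.6), a difference smaller than the SD of the DOC1 libraries. Without DOC1 2 the difference was -0.0022 points.

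Chromosome 6 outside the window went the other way from the histone stretch. It held 5.74%, 4.77% and 5.36% of the peaks of lacZ 1, lacZ 2 and lacZ 3 and 6.74%, 9.05% and 6.44% of those of DOC1 1, DOC1 2 and DOC1 3. The groups did not overlap (means of 7.41 ± 1.43% and 5.29 ± 0.489%, SD, n = 3, exact permutation p = 0.1, adjusted p = 0.3). DOC1 exceeded lacZ by 2.13 percentage points, and by 1.31 when DOC1 2 was left out. The higher share of chromosome 6 in the DOC1 lists lay outside the window.

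Bins of 1 Mb gave a finer view. DOC1 libraries all lay below lacZ libraries at 27 to 28 Mb, with 0.294%, 0.145% and 0.272% against 0.327%, 0.533% and 0.423%. The same held at 30 to 31 Mb, with 0.230%, 0.145% and 0.190% against 0.270%, 0.320% and 0.296%. They all lay above at 29 to 30 Mb, where 9 regions in all make the shares coarse. That is 2 of the 7 full bins below and 1 above, where 7.74% of all 2365 bins were below and 7.06% above. In the other 4 bins the groups overlapped. The smallest adjusted p over all bins was 0.676 (exact permutation, Benjamini-Hochberg). With 3 libraries per group the exact permutation p of a bin cannot go below 0.1 before adjustment, so no bin could pass. In lists of equal length 1 of the 7 bins had groups that did not overlap, where 7.35% of all bins did, and without DOC1 2 there were 5, where 32.1% did.

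Regions that no other library held took a larger share of the members in each DOC1 library than in each lacZ library. They made up 11.2%, 3.70% and 11.4% of the members in lacZ 1, lacZ 2 and lacZ 3 and 21.9%, 12.9% and 35.1% in DOC1 1, DOC1 2 and DOC1 3. The means were 8.78 ± 4.40% and 23.3 ± 11.2% (SD, n = 3, exact permutation p = 0.1, adjusted p = 0.3), so the groups did not overlap but did not pass the test. The difference of 14.5 percentage points was 9.39 without lacZ 1 and 20.3 without DOC1 2. The groups did not overlap over the whole lists either, with 21.4%, 5.71% and 14.7% of all regions in the lacZ libraries and 28.6%, 61.2% and 36.9% in the DOC1 libraries, so the order was not particular to the window. The gap between window and list was widest in DOC1 2, where 4 of 31 members (12.9%) were found in it alone. In lists of equal length the groups touched, at 20.8% in both lacZ 3 and DOC1 3.

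Most pairs of libraries shared more inside the window than over the genome. Of the regions that lacZ 1 or lacZ 2 held, both held 43.75% in the window and 32.6% over the genome. For DOC1 1 and DOC1 3 these shares were 44.6% and 36.2%, and for lacZ 1 and DOC1 1 they were 37.1% and 26.3%. The exception was the pair of lacZ 3 and DOC1 3, at 20.5% and 23.3%. Of the members in lacZ 2, 90.7% were also found in lacZ 1. Over the genome this share was 86.7%. DOC1 2 shared 87.1% of its 31 members with DOC1 3, 80.6% with DOC1 1 and 71.0% with lacZ 1, and over all its regions it shared 36.1%, 31.5% and 27.8%. DOC1 1 and DOC1 3 shared 95 members, which is 69.3% of the former and 55.6% of the latter. Of the 37 members found in all lacZ libraries, 30 held a DOC1 peak (81.1%, and 88.2% over all regions). Of the 25 found in all DOC1 libraries, 22 held a lacZ peak (88.0%, and 81.7% over all regions).

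Sites shared by all libraries had more reads than those of 1 library. Their median was 66, 43 and 37 reads at the summit in lacZ 1, lacZ 2 and lacZ 3 and 21, 22 and 58 in DOC1 1, DOC1 2 and DOC1 3. In members found in 1 library alone the medians were 30.5, 19 and 23 reads in the lacZ libraries and 17, 17 and 33 in the DOC1 libraries. These medians rest on 12, 2 and 8 members in the lacZ libraries and on 30, 4 and 60 in the DOC1 libraries. In DOC1 1 the ranges overlapped widely, from 13 to 33 reads for the shared sites and from 10 to 34 for the others. They also overlapped in lacZ 3 (26 to 87 against 12 to 36) and DOC1 2 (15 to 32 against 13 to 18). The same held in DOC1 3 (38 to 103 against 24 to 68), but not in lacZ 1 or lacZ 2. The fewest reads at a shared site were 13 in DOC1 1 and 15 in DOC1 2, against 48 in lacZ 1.

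**Figure D5:**
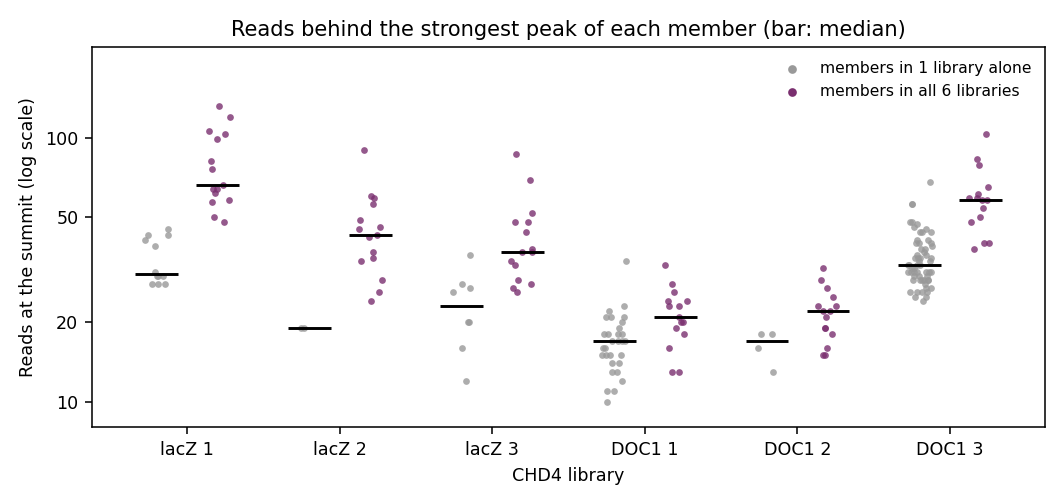
Reads at the summit of the strongest peak of a member (y axis, log scale) in each CHD4 library (x axis), for members found in that library alone (grey) and members found in all 6 libraries (purple), with bars at the median. The shared sites have medians from 21 reads (DOC1 1) to 66 reads (lacZ 1), above the medians of the other sites of the same library.

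The size of the peaks did not part the groups. Median peak width in the window was 398, 331 and 315 bp in lacZ 1, lacZ 2 and lacZ 3 and 305, 275 and 405.5 bp in DOC1 1, DOC1 2 and DOC1 3 (exact permutation p = 0.6). The peaks covered 53.7, 20.6 and 30.0 kb of the window in the lacZ libraries and 48.9, 9.57 and 83.5 kb in the DOC1 libraries (exact permutation p = 0.7). The number of peaks was 79.7 ± 25.3 without DOC1 and 116.7 ± 76.0 with it (SD, n = 3, exact permutation p = 0.5). In lists of equal length this order was turned, with 13 fewer peaks per DOC1 library. The 3 longest members lay in the histone stretch and were found in all libraries but DOC1 2. The longest, chr6:27144254-27146615 (2362 bp), held the lacZ summits between 27144471 and 27144896 and the summits of DOC1 1 and DOC1 3 at 27146364 and 27146189, so the summits of the groups lay far apart within it. Its strongest peaks of lacZ 2 (331 bp) and DOC1 1 (271 bp) did not overlap each other. It is thus a chain of peaks rather than 1 site shared by these libraries. In chr6:26568061-26569792 (1732 bp) the folds were 16.6, 13.1 and 12.6 in lacZ 1, lacZ 2 and lacZ 3 and 6.86 and 5.70 in DOC1 1 and DOC1 3. The next, chr6:26327669-26329220 (1552 bp), was broad but low, with folds between 4.24 and 5.17.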

How the data were processed

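CHD4 ChIP-seq libraries of SCC9 cells (3 lacZ, 3 DOC1) were analysed through 1 peak list each. MACS2 2.1.1.20160309, BWA 0.7.12-r1039, SAMtools 1.2, Trimmomatic 0.33 and the build hg19 are named in the submitters' processing notes, in no stated order. Neither a control for the peaks nor a filter on reads that match several gene copies is given in the sources used here. By estimated depth and scale factor, the lacZ lists appear to share a control not used for DOC1 3. The control of DOC1 1 and DOC1 2 cannot be read from these values. A difference between the controls cannot be told apart from that of DOC1. Each deposited peak has a fold (a ratio to local background), the −log10 of its p- and q-values and a score, which the authors' lists give as 10 times the −log10 q-value without decimals. Per-region counts were not used, so regions were compared by presence of a peak.

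Reads at the summit, the library's scale factor and local background were solved jointly from fold and p-value as MACS2 computes them. Whole reads matched within 0.002 background reads for at least 99.89% of peaks per list, and at least 99.5% were recovered in 6 simulated lists. Simulated summits held fewer reads than those of the strongest members, so recovery at such read numbers was not tested. Depth assumes a genome of 2.7e+09 bp. Groups were compared over libraries by exact permutation (two-sided, all 20 assignments), with Benjamini-Hochberg adjustment over 9 measures. Runs allowed gaps of 20 kb. Regions named are those in all 6 libraries (the 8 with the best lowest percentile of fold), all in 3 of 3 libraries of a group and 0 of 3 of the other, up to 3 per stretch and direction in 2 or more libraries of 1 group only, the 5 runs with most members and the 5 longest. Alternatives were a stricter threshold (q of 0.001), lists of equal length (top 2812 peaks by p-value), 100 bp either side of summits, merging within 500 bp, presence only where 50% of a region is covered, members from 26 Mb, and leaving out each library. The members and lists were chosen with earlier results of these data known. Tools were scipy 1.17.1, pandas 2.3.3, numpy 2.4.6 and matplotlib 3.10.9 under Python 3.11.15.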

Additional observations from a re-analysis of the deposited data

How the results depend on the processing

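Lists of equal length without DOC1 2, and the alternatives for bins, were chosen after seeing the data. Differences are DOC1 minus lacZ. The lower histone share with DOC1 (-0.30 points), the higher share on the rest of chromosome 6 and the higher share of members in 1 library alone kept their direction in all alternatives run, at -0.557 to -0.194, 1.31 to 2.61 and 7.88 to 21.4 points. Peaks in the window, 37 more with DOC1, turned to -13 in lists of equal length and -3.5 there without DOC1 2, and ranged from 7.33 to 79.8 with 1 library left out. Covered length turned from 12.5 kb to -6.97 kb, -1.10 kb and, without DOC1 3, -5.57 kb (up to 31.4 kb). The zinc finger and tRNA share (-0.0015 points) became positive, at 0.0096 with the stricter threshold, 0.119 with equal list lengths, 0.213 there without DOC1 2, 0.0416 without lacZ 2, 0.0376 without DOC1 2 and 0.00046 without DOC1 3 (lowest -0.0425). The MHC share (0.0076) turned to -0.0084 at the stricter q, -0.0711 with equal list lengths, -0.0138 without lacZ 3, -0.0853 without DOC1 1 and -0.056 without DOC1 3 (highest 0.164). Median width (-19.5 bp) changed sign with equal list lengths without DOC1 2 (26.9 bp) and reached 5.5 bp without lacZ 1 and 7.25 bp without DOC1 2 (lowest -58 bp). Members of all DOC1 and no lacZ libraries (3) became 7 in lists of equal length without DOC1 2 (5.47%, background 5.70%), 1 where 50% of the region had to be covered (0.388%, background 0.558%), and 3 to 35 when any single library was dropped (7 without lacZ 1, 5 without DOC1 1, 35 without DOC1 2), with backgrounds of 1.02% to 11.96%. Those of all lacZ and no DOC1 libraries (7) became 5 merged within 500 bp and 5 with 50% covered (1.94%, background 1.04%), and 7 to 15 with 1 library left out (15 without lacZ 2). Members in all 6 libraries (15) became 2 where 50% had to be covered (0.775%, background 0.622%, so the share was near the background there) and 14 to 28 with 1 library left out (28 without DOC1 2, 11.0%, background 7.15%). Members with at least 2 more DOC1 than lacZ libraries (41, 15.9%, background 12.2%) became 9 in lists of equal length (background 6.73%), 7 there without DOC1 2 (background 5.70%), and 4 to 57 (backgrounds 1.56% to 17.7%). Those with at least 2 more lacZ libraries (21, 8.14%, background 6.7%) became 8 to 38 (backgrounds 1.51% to 16.5%). Bins with groups apart (3 of 7, background 14.8%) became 1 in lists of equal length (background 7.35%) and 3 to 5 (backgrounds 20.3% to 32.1%). Where not stated, the cause was not tested. With the replicate block (same-numbered libraries as pairs) the histone difference is -0.298 points by construction, and its exact sign-flip p was 0.25, the smallest that 3 pairs allow. Deviations of same-numbered libraries correlated at 0.006, 0.031 and -0.019, and those of unlike number between -0.038 and 0.031. These values cannot tell whether same-numbered libraries were prepared together.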
